A study of Mus musculus with 10 samples.

Results

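The genes described here encode 2 synucleins (Sncb and Sncg), the microtubule-associated protein tau (Mapt), the amyloid precursor protein and its relatives (App, Aplp1 and Aplp2) and the prion protein (Prnp). They were found by matching their symbols among the 34254 genes of the deposited count tables. All 7 were present and all 7 passed the filter on low counts.

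Several of these proteins are best known from the inclusions and plaques of neurodegenerative disease, but each is also a normal neuronal protein. Synucleins are small soluble proteins enriched in synaptic terminals, and tau binds and spaces the microtubules of axons. App and its relatives are membrane proteins that are carried along axons and cleaved by secretases, and the prion protein is a glycoprotein held at the cell surface by a lipid anchor.

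Retinal ganglion cells (RGCs), whose axons form the optic nerve, were profiled by single cell RNA-seq in 6 uninjured and 4 injured libraries. Both groups are described as coming from 129S1/SvImJ wild-type mice of both sexes at 12 weeks of age (P84). Injured RGCs were collected 2 weeks after optic nerve crush (ONC), which severs RGC axons. Cells of 10 retinas were pooled per batch and captured with an antibody against Thy1 on coated plates, and the design text of the series names FACS as well. The comparison between the groups asks which genes differ in RGCs that remain 2 weeks after axon injury. The methods of the study and the sample labels differ on the reagent kit, the sequencer and the version of Cell Ranger that counted the UMIs, and amacrine cells are named beside macrophages as removed in the former alone. Nothing states that the libraries came from separate animals, so the p-values below measure the spread between these samples, which may be technical.

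The files held 1683 uninjured and 1609 injured cells. The uninjured number equals that of the study, and the injured number is higher than that of the study. Totals per library were 2839693 to 23180399 unique molecular identifiers (UMIs, each standing for 1 captured transcript) in uninjured libraries and 4698799 to 8860536 in injured libraries. Cells were deeper in uninjured libraries, with library medians of 20437 to 34337 UMIs per cell against 11257 to 14695. Each of the 7 genes had at least 772 UMIs in every library.

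Several libraries stood apart or resembled each other. Injured 3 and 4 had 421 cell barcodes in common, while no other pair had more than 1 (median chi-square over sampling noise of their sums 0.954). Their average served as 1 sample, injured 3/4, giving 6 uninjured and 3 injured samples. The pairs uninjured 1 and 2, 3 and 4, 5 and 6, and injured 1 and 2 were also alike (1.44 to 2.11), against 3.46 to 16.0 for the other pairs within a condition. Cells with Xist made up 62.1% of injured 1, 67.4% of injured 2 and no more than 0.569% of each remaining library. Xist is transcribed in female cells, so although the source names both sexes, its cells were nearly absent from all uninjured libraries and from injured 3 and 4. Cells with the reporter mCherry made up 7.99%, 15.0%, 86.0% and 84.3% of injured 1 to 4, and no uninjured cell carried it. In the paper mCherry is expressed from AAV2 viral vectors injected into the eye before ONC. Its methods name no vector for the uninjured and injured libraries. Any effect of a vector or its injection thus cannot be told apart from that of injury. Malat1, a nuclear RNA, took a median of 1.72% to 4.82% of a cell's UMIs in uninjured libraries and 6.37% to 7.78% in injured libraries. Library medians for mitochondrial UMIs were 2.84% to 5.63% and 1.48% to 3.15%, and for ribosomal protein genes 2.47% to 4.41% and 5.202% to 5.94%. The part of these differences in the results was not tested beyond the values given beside them.

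The cells carried the transcripts of RGCs, in part because they were chosen for them. The 12 markers used here include Thy1, by which cells were captured. They also include Rbpms, Slc17a6 and Tubb3, on which the paper bases RGC identity. The 12 ganglion cell markers together reached 6094 to 7092 CPM before injury and 4319 to 4956 CPM after it, with Nefl the most abundant before injury (mean 2062 CPM) and Tubb3 after it (1262 CPM, beside 1190.0 CPM of Nefl). After injury 7 of the 12 were lower, 1 was higher and 4 did not pass the test. CPM of a single gene expresses its UMIs relative to all UMIs of the sample after scaling by edgeR's TMM factors. Sums over a marker list and the range of Clu below are relative to all UMIs without these factors. So are the values of cells grouped by a marker of RGC type.

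In the GENCODE annotation of the mm39 genome, Sncb (ENSMUSG00000034891.15) lies on the reverse strand at chr13:54906660-54914432 and Sncg (ENSMUSG00000023064.6) on the reverse strand at chr14:34092231-34100539. Mapt (ENSMUSG00000018411.19) lies on the forward strand at chr11:104122024-104222946. App (ENSMUSG00000022892.13) lies on the reverse strand at chr16:84746573-84971126, Aplp1 (ENSMUSG00000006651.10) on the reverse strand at chr7:30134404-30145102 and Aplp2 (ENSMUSG00000031996.19) on the reverse strand at chr9:31053586-31123183. Prnp (ENSMUSG00000079037.11) lies on the forward strand at chr2:131724927-131780375. No annotated pseudogene bears the name of any of the 7 genes. Exons of Sncg overlap by 314 bases with Mmrn2 on the opposite strand, which had 45 UMIs in total. On the same terms, exons of Mapt overlap by 121 bases with Gm11659 (589 UMIs) and by fewer bases with Gm72530, which is not among the counted genes, and exons of App overlap by 113 bases with Gm49227 (45 UMIs). Prnp overlaps by 145 exonic bases with Prn, a gene on the same strand that had 0 UMIs. The paper names default settings of Cell Ranger without stating how strand and shared exons were handled, so counts of these overlapping genes are uncertain to that extent.

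Stretches of reference sequence before the start sites of Sncb, Aplp2 and Prnp are shown because these genes changed most clearly between conditions, 2 in one direction and 1 in the other. RefSeq promoters (GRCm38.p6) were matched for 6 of the 7 genes, and bases 250 to 40 before each start, 211 bases in all, were placed on mm39 by an exact match. The windows are Sncb chr13:54914448-54914658 (reverse strand), Aplp2 chr9:31123184-31123394 (reverse strand, overlapping an exon of the noncoding gene Gm69111) and Prnp chr2:131751598-131751808 (forward strand, inside the annotated gene). The windows of Sncg, App and Aplp1 overlap annotated exons and are not printed. Each is written in the direction of transcription, and capitals mark GGGCGG, the core of the GC box, and TGACTCA, the AP-1 element.
Sncb promoter window: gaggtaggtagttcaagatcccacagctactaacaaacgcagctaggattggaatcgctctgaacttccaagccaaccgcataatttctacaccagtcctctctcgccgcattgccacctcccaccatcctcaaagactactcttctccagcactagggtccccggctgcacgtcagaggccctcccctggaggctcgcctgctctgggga
Aplp2 promoter window: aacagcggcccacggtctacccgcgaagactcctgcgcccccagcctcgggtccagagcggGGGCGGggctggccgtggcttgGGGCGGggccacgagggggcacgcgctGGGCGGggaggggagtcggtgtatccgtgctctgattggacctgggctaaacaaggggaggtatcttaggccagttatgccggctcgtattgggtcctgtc
Prnp promoter window: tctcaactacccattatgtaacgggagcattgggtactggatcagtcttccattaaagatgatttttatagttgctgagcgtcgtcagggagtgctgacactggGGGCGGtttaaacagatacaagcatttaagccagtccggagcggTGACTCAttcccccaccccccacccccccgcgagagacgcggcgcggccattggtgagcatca
GGGCGG, searched on both strands, had 3 matches in the Aplp2 window, 1 in that of Prnp and 0 in that of Sncb, and 26.9% of the 32851 promoter windows of this length hold it. TGACTCA had 1 match in the Prnp window, at base -102 from the start, and 0 in the windows of the other 5 genes, and 3.81% of all windows hold it. CCAAT had 1 match in the Sncb window and 2 in each of the other printed windows (30.0% of all windows), and TATAAA had 1 match, in the Prnp window (9.60%). TGACGTCA (1.02%) and CACGTG (4.70%) had no match in the 6 windows. The GC content was 56.4% for Sncb, 68.7% for Aplp2 and 54.0% for Prnp, beside a median of 51.7% over all windows. A match describes the letters of the reference sequence, which is not that of 129S1/SvImJ, and is neither a binding site nor a cause.

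Injury separated the 7 genes into those that fell (Sncb, Sncg and Aplp2), 1 that rose (Prnp) and those that did not pass the test (Mapt, App and Aplp1). Of 14234 genes tested with edgeR's quasi-likelihood test, 44.0% had a Benjamini-Hochberg adjusted p under 0.05, 21.3% higher and 22.7% lower in injured samples. With 4 of 7 genes past the threshold, 3 lower and 1 higher, the count gives no sign that these genes were called more often than others. The conditions did not overlap in CPM for 5 of the 7, beside 42.9% of all genes tested. The median log2 fold change of all genes tested was -0.03, and it was -0.13 with DESeq2 and -0.10 with library totals alone, settings in which each of the 7 genes had the same direction as with TMM factors.

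**Figure D1:**
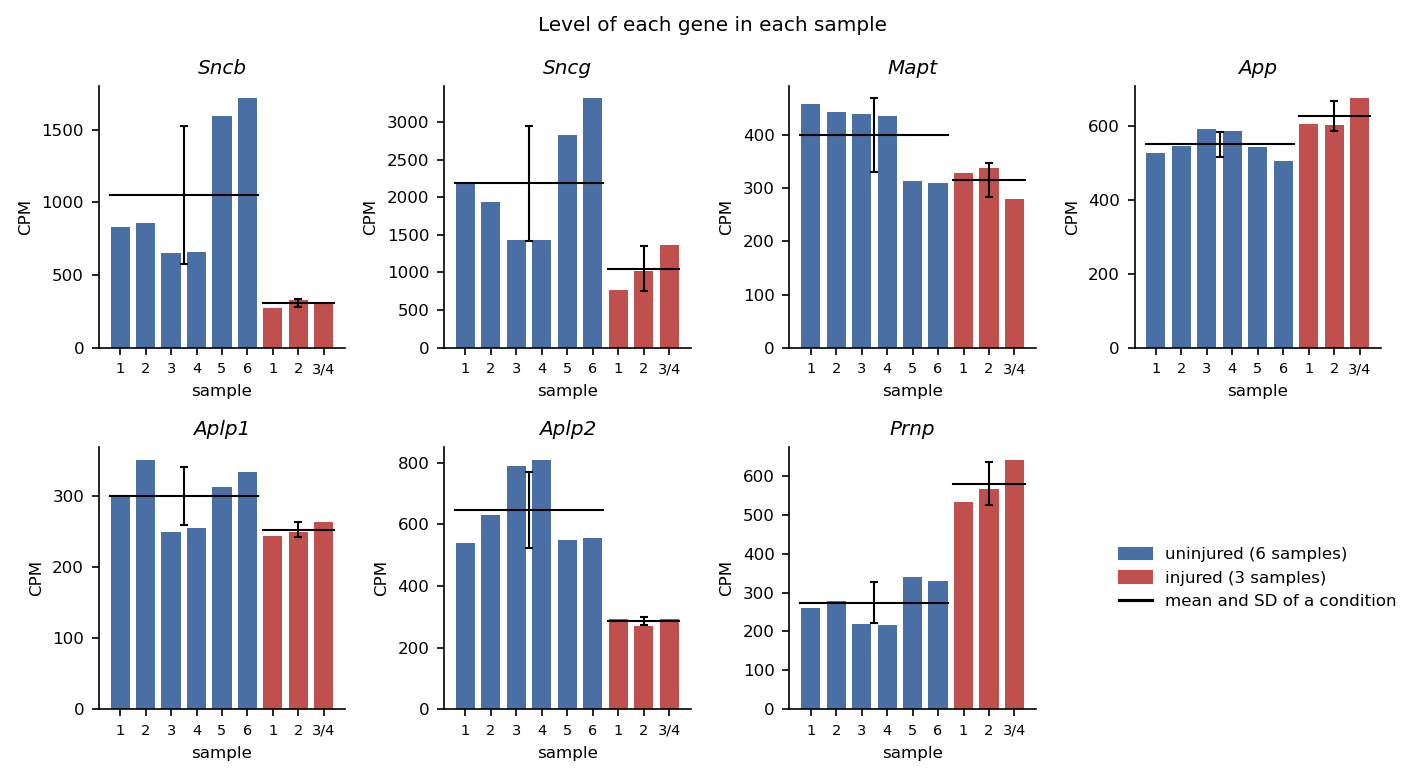
CPM (y axis) of each of the 7 genes in 6 uninjured (blue) and 3 injured (red) samples, with the mean of a condition as a horizontal line and its SD as an error bar. Sncb lies at 275 to 325 CPM in injured samples, below all uninjured samples, and Prnp at 535 to 642 CPM, above them, while Mapt and Aplp1 overlap.

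Sncb, which encodes beta-synuclein, a presynaptic protein closely related to alpha-synuclein, was lower after injury. In uninjured samples 1 to 6 its level was 829, 861, 653, 655, 1595 and 1716 CPM, and in injured 1, injured 2 and injured 3/4 it was 275, 325 and 316 CPM. Every injured sample lay below every uninjured sample, and the uninjured samples themselves differed by up to 2.63-fold, with uninjured 5 and 6 highest. The mean went from 1052 ± 477 CPM (SD, n = 6) to 306 ± 26.5 CPM (SD, n = 3). This 3.44-fold decrease (log2 fold change -1.78, standard error 0.35; edgeR's quasi-likelihood test, Benjamini-Hochberg adjusted p = 0.00158) was seen in 3 of 3 injured samples. Only 11.6% of the genes tested had a larger change in either direction. When only cells with a Malat1 share of 3% to 5% were used, the log2 fold change was -1.07 (adjusted p = 0.00583 with edgeR).

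Sncg encodes gamma-synuclein, which is abundant in RGCs and serves as a marker of them, and each deposited cell carried at least 1 of its UMIs. In uninjured samples 1 to 6 its level was 2172, 1934, 1426, 1429, 2834 and 3315 CPM, and in injured 1, injured 2 and injured 3/4 it was 766, 1017 and 1366 CPM. The conditions did not overlap, but injured 3/4 was close to uninjured 3 and 4. The log2 fold change was -1.06 (standard error 0.31), a 2.08-fold decrease (edgeR, adjusted p = 0.0166), lower in 3 of 3 injured samples. The call was lost in 5 of 30 settings, among them those that left out injured 1 (edgeR, adjusted p = 0.0899) or injured 2 (0.0654). With similar libraries summed it was 0.111, and for cells with a Malat1 share of 3% to 5% the log2 fold change was -0.35 (adjusted p = 0.369). The adjusted p ranged from 0.00164 to 0.369.

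The paper bases RGC identity on coexpression of Rbpms, Slc17a6, Sncg and Tubb3, and each deposited cell carried Sncg. Cells without it are thus missing, and the levels of Sncg and its ratio to Sncb hold for the selected cells alone. The ratio of Sncg to Sncb UMIs within a sample does not depend on how samples are scaled, and it was 2.62, 2.25, 2.18, 2.18, 1.78 and 1.93 in uninjured samples 1 to 6 and 2.78, 3.13 and 4.32 in the injured samples. Each injured ratio was above each uninjured ratio, and the mean log2 ratio differed by 0.65 (exact two-sided permutation test over 6 and 3 samples, p = 0.0238, the smallest possible, and 0.0238 after adjustment over 4 ratios). Sncg took 68.1% ± 2.89 of the UMIs of both genes in uninjured samples (SD, n = 6) and 76.8% ± 3.93 in injured samples (SD, n = 3).

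Sncb and Sncg also varied together from cell to cell. With each cell thinned to 8000 UMIs, so that depth was equal, the Spearman correlation of their counts across the cells of a library was 0.27 to 0.58 in uninjured libraries (median 0.45) and 0.37 to 0.55 in injured libraries (median 0.46). For every other pair among the 7 genes the medians lay between -0.14 and 0.22. These values describe cells that share a library and a depth, and cells are not replicates.

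Mapt, the gene of tau, did not differ beyond the spread between samples. Its level was 459, 443.5, 440, 436, 314 and 309.5 CPM in uninjured samples 1 to 6 and 330, 339 and 279 CPM in the injured samples. Uninjured 5 and 6 lay among the injured samples, and the other uninjured samples were above them. The mean was 400.4 ± 69.0 CPM (SD, n = 6) and 316 ± 32.0 CPM (SD, n = 3), with a log2 fold change of -0.34 (standard error 0.18, edgeR, adjusted p = 0.137) and lower values in 3 of 3 injured samples than the uninjured mean. The decrease was past the threshold in 3 of 30 settings, namely limma-voom with sample quality weights (-0.40, adjusted p = 0.00589) and libraries 1 to 4 alone in 2 settings, which leave out uninjured 5 and 6 and also count injured 3 and 4 as separate samples, and the adjusted p ranged from 3.38e-04 to 0.437.

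Of the App family, Aplp2 alone passed the threshold. Aplp2, a relative of App that lacks the amyloid-beta stretch and is expressed in most tissues, was at 539, 632, 791, 809, 549.9 and 556 CPM in uninjured samples 1 to 6 and at 293, 270.15 and 293 CPM in the injured samples. All injured samples were below all uninjured samples, of which 3 and 4 were highest. The log2 fold change was -1.18 (standard error 0.19), a 2.27-fold decrease from 646 ± 124 CPM (SD, n = 6) to 285 ± 13.0 CPM (SD, n = 3) seen in 3 of 3 injured samples (edgeR's quasi-likelihood test, Benjamini-Hochberg adjusted p = 3.04e-04). Over 30 settings the log2 fold change of Aplp2 stayed between -1.28 and -1.09 and was past the threshold in each.

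App itself, the precursor of amyloid-beta, was at 528, 548, 593, 587.5, 544 and 506 CPM in uninjured samples 1 to 6 and at 608, 603 and 676 CPM in the injured samples. Injured samples were above all uninjured samples, by as little as 603 against 593 CPM. The log2 fold change of 0.19 (standard error 0.13; edgeR, adjusted p = 0.265) was not past the threshold, and it was past the threshold with DESeq2 alone of 30 settings (0.21, adjusted p = 0.0329; range 0.0329 to 0.885). An exact permutation test (two-sided) on log2 CPM, run for each of the 7 genes, gave p = 0.0238, the smallest possible with 6 and 3 samples, for App and for the 4 genes that passed edgeR's test, 0.143 for Mapt and 0.119 for Aplp1.

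Aplp1, a relative that is largely restricted to neurons, was at 299.8, 350.15, 249, 255, 312 and 333 CPM in uninjured samples 1 to 6 and at 243, 249 and 263 CPM in the injured samples. Injured samples overlapped uninjured 3 and 4. The log2 fold change was -0.25 (standard error 0.15, edgeR, adjusted p = 0.197), and it was 0.07 (adjusted p = 0.852) when cells with UMIs of at least 3 markers of another retinal class were left out.

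Ratios within the family, which do not depend on scaling, separated the conditions. The ratio of App to Aplp2 UMIs was 0.979, 0.868, 0.750, 0.726, 0.990 and 0.909 in uninjured samples 1 to 6 and 2.08, 2.23 and 2.31 in the injured samples. App UMIs were thus fewer than Aplp2 UMIs in every uninjured sample and 2.08 to 2.31 times as many in every injured sample, a 2.55-fold change of the ratio (log2 difference 1.35). The ratio of Aplp1 to Aplp2 went from a geometric mean of 0.467 to 0.884 (log2 difference 0.92) and that of App to Aplp1 from 1.85 to 2.49 (log2 difference 0.43), also without overlap. For App to Aplp1 the margin was small, with uninjured 3 and 4 at 2.38 and 2.30 and the lowest injured sample at 2.42. The other uninjured samples were at 1.52 to 1.76. Each of the 3 ratios had an exact two-sided permutation p = 0.0238, the smallest possible, and 0.0238 after Benjamini-Hochberg adjustment over 4 ratios. The App to Aplp1 difference was 0.07 (adjusted p = 0.833, exact permutation test) without cells with markers of another class. With similar libraries summed no p under 0.2 was possible. The log2 differences were then 1.37 for App to Aplp2, 0.92 for Aplp1 to Aplp2, 0.45 for App to Aplp1 and 0.74 for Sncg to Sncb.

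As shares of all App family UMIs, App took 36.9% ± 1.41 in uninjured samples (SD, n = 6; 35.6% to 38.7%) and 53.9% ± 0.885 in injured samples (SD, n = 3; 53.1% to 54.9%). Aplp2 took 42.9% ± 4.59 (39.1% to 49.0%) and 24.5% ± 0.982 (23.8% to 25.6%). Aplp1 took 20.3% ± 3.86 (15.3% to 23.9%) and 21.6% ± 0.515 (21.3% to 22.2%), with the injured samples inside the uninjured range. The makeup of the family thus shifted from Aplp2 to App.

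**Figure D2:**
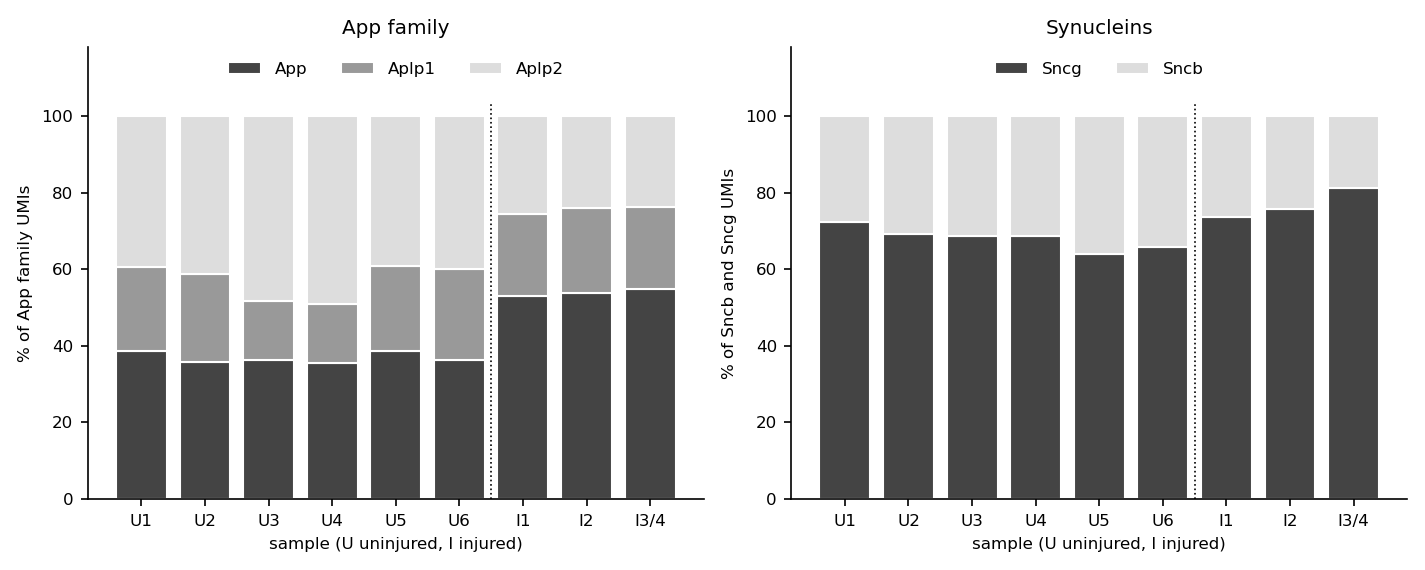
Shares (y axis, %) of App, Aplp1 and Aplp2 in the UMIs of the App family (left) and of Sncg and Sncb in their summed UMIs (right), for 6 uninjured (U) and 3 injured (I) samples. App takes 35.6% to 38.7% of family UMIs in uninjured samples and 53.1% to 54.9% in injured samples.

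Prnp was the only gene of the 7 that rose with edgeR's test. Its level was 260.1, 279, 218, 218, 341 and 330.1 CPM in uninjured samples 1 to 6 and 535, 567 and 642 CPM in the injured samples. All injured samples were above all uninjured samples, of which 3 and 4 were lowest and 5 and 6 highest. The mean rose from 274 ± 53.3 CPM (SD, n = 6) to 581 ± 55.0 CPM (SD, n = 3), a 2.12-fold increase seen in 3 of 3 injured samples (log2 fold change 1.08, standard error 0.17; edgeR's quasi-likelihood test, Benjamini-Hochberg adjusted p = 3.52e-04). Over 30 settings the log2 fold change was 0.92 to 1.301 and past the threshold in each. The window of Prnp shown above is the one of the 6 that holds TGACTCA, and no factor was measured there.

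**Figure D3:**
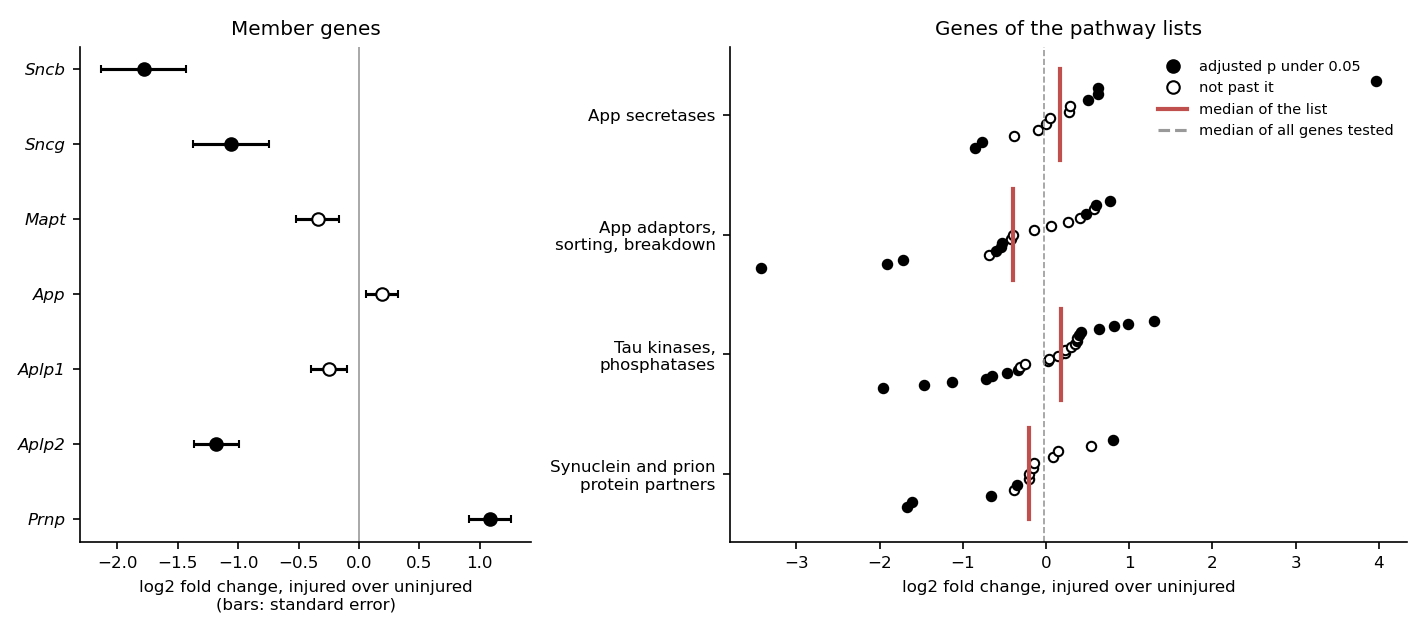
Log2 fold change (x axis, injured over uninjured) of the 7 genes with standard errors (left) and of the genes of 4 pathway lists with the median of each list (right). Filled points have an edgeR adjusted p under 0.05, which holds for Sncb (-1.78), Sncg (-1.06), Aplp2 (-1.18) and Prnp (1.08), and the medians of the lists lie between -0.40 and 0.18.

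Because similar uninjured libraries came in pairs, the injured samples were also set against each pair, without a test. Sncb was lower in injured samples by 2.77-fold against uninjured 1 and 2, 2.15-fold against uninjured 3 and 4 and 5.43-fold against uninjured 5 and 6. The same comparisons gave 2.01-fold, 1.40-fold and 3.00-fold for Sncg and 2.05-fold, 2.81-fold and 1.94-fold for Aplp2. For Prnp the log2 differences were 1.11, 1.41 and 0.79. Sncb, Sncg and Prnp were highest in uninjured 5 and 6 and lowest in uninjured 3 and 4, while Aplp2 was highest in uninjured 3 and 4 and Mapt lowest in uninjured 5 and 6. Against uninjured 5 and 6 the log2 difference of Mapt was 0.01, beside -0.52 and -0.48 against the other pairs.

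**Figure D4:**
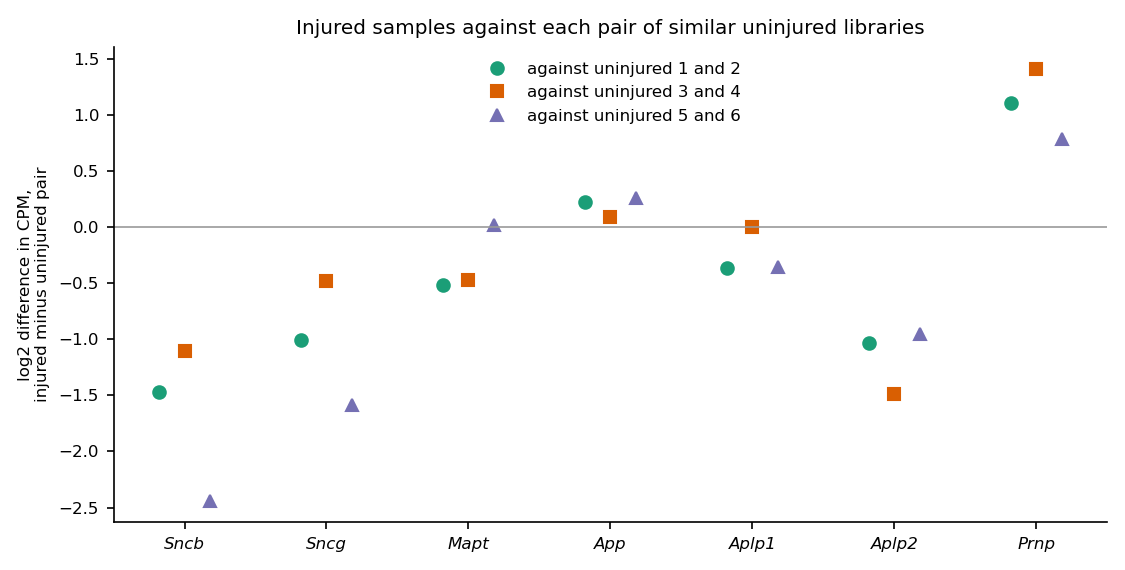
Difference in mean log2 CPM (y axis) between the 3 injured samples and each pair of similar uninjured libraries, for the 7 genes. Sncb, Sncg and Aplp2 lie below 0 and Prnp above 0 against each pair, while Mapt is at 0.01 against uninjured 5 and 6.

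The share of cells with at least 1 UMI was compared at equal depth. Cells were thinned to 8000 UMIs, which kept 1654 of 1683 uninjured and 1376 of 1609 injured cells. Sncb was detected in 97.7% ± 2.08 of uninjured cells (SD, n = 6; 94.7% to 100% by sample) and in 67.0% ± 4.64 of injured cells (SD, n = 3; 62.1%, 71.3% and 67.6%). No injured sample reached the lowest uninjured sample, and without thinning the means were 99.8% and 77.4%. Aplp2 was detected in 97.8% ± 1.26 and 84.8% ± 1.03 of cells (99.9% and 93.1% without thinning). Prnp was detected in 89.2% ± 5.11 and 97.02% ± 1.39 (98.2% and 99.1% without thinning). For these 3 genes the exact two-sided permutation test gave p = 0.0238, the smallest possible, and 0.0476 after Benjamini-Hochberg adjustment over the 6 genes tested. The plan had named all 7 genes, and over 7 the adjusted p is 0.0556, which is not past the threshold, so these shares pass only because the plan was left. Leaving out any 1 sample also took the adjusted p above 0.05. With fewer samples the smallest p of the exact permutation test rises to 0.0357 or 0.0714 before adjustment. Without 1 sample, Sncb differed by -32.9 to -28.3, Aplp2 by -13.4 to -12.4 and Prnp by 6.28 to 8.74 percentage points. The differences of -30.7, -13.0 and 7.87 percentage points for Sncb, Aplp2 and Prnp were -38.2, -25.1 and 19.0 points at 5000 UMIs per cell, and for cells with a Malat1 share of 3% to 5% that of Sncb was -11.6 points (exact permutation test, adjusted p = 0.0714).

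The thinned shares of Mapt (95.4% and 88.5%; exact permutation test, adjusted p = 0.0714), Aplp1 (88.3% and 82.4%; 0.0857) and App (97.7% and 98.6%; 0.429) were not past the threshold. Sncg, one of the markers on which RGC identity was based, was at 98.2% and 95.03% and was not tested. The files hold only cells selected as RGCs. A cell type that lacks these genes, which would show the level of free RNA, was therefore not read from them.

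Counts of Sncb per cell lay lower in each injured library, and the upper tail differed between injured libraries. The median thinned cell held 4 to 12 UMIs of Sncb in uninjured libraries and 1 UMI in each injured library. The lower decile was 1 to 7.9 UMIs in uninjured and 0 UMIs in injured libraries, while the upper decile was 10 to 20 UMIs in uninjured and 5 to 7 UMIs in injured libraries. The highest single cell held 17 to 26 UMIs in uninjured libraries and 11, 13, 23 and 28 UMIs in injured 1 to 4. The Fano factor of Sncb, which is the variance over the mean and would be 1 for counting noise alone, was 1.71 to 2.93 in uninjured libraries, 2.46 and 2.86 in injured 1 and 2, inside that range, and 3.87 and 4.85 in injured 3 and 4, which are 1 sample. Sncg had the widest spread of the 7, with Fano factors of 3.91 to 6.80 and 4.71 to 12.3, and medians of 9 to 24 UMIs and 4 to 6 UMIs. The median cell held 4 to 6 UMIs of Aplp2 in uninjured and 2 UMIs in injured libraries, and 2 to 3 UMIs and 4 to 5 UMIs of Prnp. Fano factors of Mapt, App, Aplp1 and Prnp lay between 0.82 and 1.78. None of these per-cell values was tested.

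**Figure D5:**
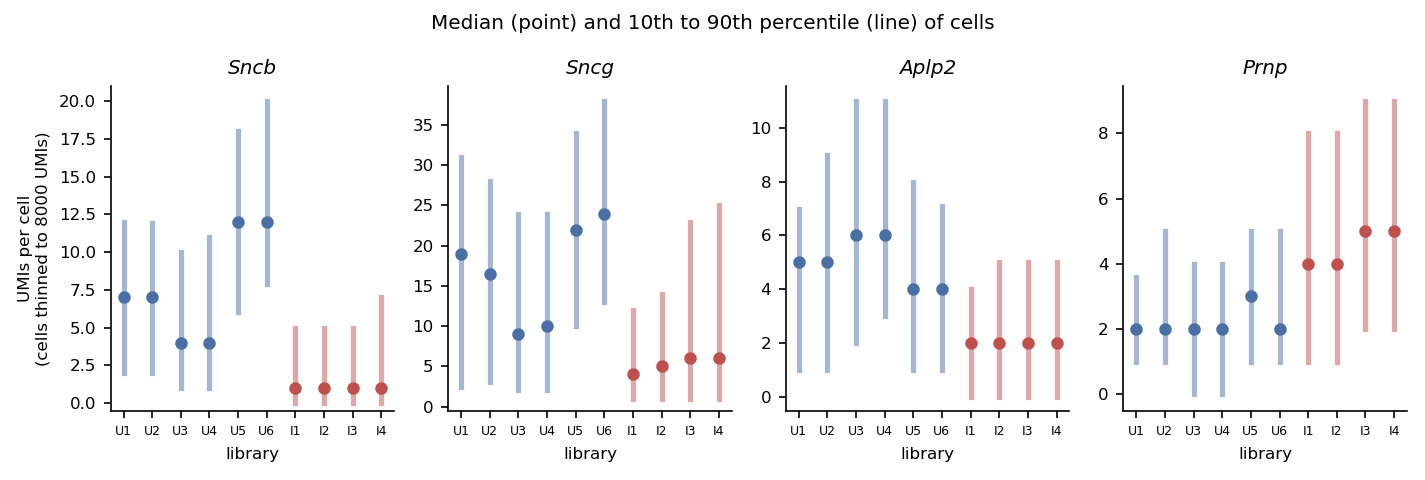
UMIs per cell (y axis, cells thinned to 8000 UMIs) of Sncb, Sncg, Aplp2 and Prnp in 6 uninjured (U) and 4 injured (I) libraries, as the median (point) and the span from the lower to the upper decile (line). The median of Sncb is 4 to 12 UMIs in uninjured libraries and 1 UMI in each injured library, where the upper decile still reaches 5 to 7 UMIs.

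RGCs comprise many types, and cells carrying markers of some of them were compared with the other cells of their sample. Markers were read at 2 or more UMIs after thinning. Injured cell numbers below add up injured 3 and 4, which had barcodes in common, so they exceed the number of distinct cells. Among uninjured samples 21 pairs of gene and marker could be tested (Eomes, Foxp2 and Cartpt), and an exact two-sided sign-flip test over 6 samples called 0 of them after Benjamini-Hochberg adjustment, with 3 at the smallest possible p of 0.0313. In these 3, Sncg was lower in cells with Foxp2, a transcription factor of some small RGC types, by -0.40 on the log2 scale (1730 against 2257 CPM, 278 cells, lower in 6 of 6 samples, adjusted p = 0.188). In cells with Cartpt, a peptide gene of many direction-selective RGCs (633 cells), App differed by -0.13 and Aplp1 by 0.13, each in 6 of 6 samples (adjusted p = 0.188 for both). Without a test, cells with Zic1 (62 cells in all, 4 samples with enough cells) held 463 CPM of Aplp2 against 692 CPM in the other cells, lower in 4 of 4 samples. Aplp2 went the other way in cells with Tfap2d (131 cells in all), at 859 against 665 CPM and higher in 4 of 4 samples. Sncg was higher in cells with Zic1 in 4 of 4 samples (2867 against 2179 CPM). Other untested pairs are not listed.

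The same comparison in injured samples is given as values, since no difference between the conditions passed after adjustment. Cells with Opn4, the photopigment of intrinsically photosensitive RGCs (50 uninjured cells, of which those of uninjured 6 were too few to use, and 50 injured cells), held Aplp2 at 584 CPM in 5 uninjured samples and at 510.0 CPM in injured samples, while the other cells held 687 and 267 CPM. Prnp was at 348 and 370.5 CPM in cells with Opn4 and at 265 and 558 CPM in the other cells. In injured samples, cells with Opn4 thus held more Aplp2 (log2 difference 0.92) and less Prnp (-0.61) than the other cells, in 3 of 3 samples. Cells with Eomes, a transcription factor of the same RGC class (59 and 31 cells, of which 39 and 25 also carried Opn4), gave 0.78 for Aplp2 and -0.81 for Prnp, likewise in 3 of 3 injured samples.

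Among injured cells, those with these markers also held more Sncb and Sncg than the other injured cells, by 0.60 and 0.73 on the log2 scale with Opn4 (452 against 298 CPM of Sncb and 1686 against 1010.2 CPM of Sncg, beside 780.0 and 1719 CPM in uninjured cells with Opn4) and by 0.50 and 0.60 with Eomes. Cartpt itself was carried by 633 of 1654 uninjured and 35 of 1376 injured thinned cells, so cells with and without it cannot be taken as the same cell types in both conditions. The injured cells with Cartpt held 550.3 CPM of Aplp2 against 267 CPM in other injured cells, and also more Prnp (748 against 548 CPM), in 3 of 3 samples each. Whether these differences between cells changed with injury was asked after the values had been seen, for 35 pairs of gene and marker. In 12 pairs the conditions did not overlap, each at the smallest p of an exact two-sided permutation test (0.0238, 0.0357 or 0.0571 with 6, 5 or 4 uninjured samples against 3). Unadjusted, 12 of the 35 pairs had p under 0.05, and 0 passed after Benjamini-Hochberg adjustment. The adjusted p was 0.114 for 11 of the pairs without overlap and 0.154 for Aplp2 in cells with Tfap2d. Each of the values from cells with Opn4 or Eomes in an injured library rested on 5 to 18 cells, and each of those from cells with Cartpt on 7 to 11 cells.

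The enzymes that process App changed in part. Of 66 genes tested in 4 pathway lists, 34 were past edgeR's threshold (51.5%, beside 44.0% of all genes tested). Of 12 secretase genes, 4 were higher, 2 lower and 6 not past the threshold, with a median log2 fold change of 0.16. Adam10, the main alpha-secretase of neurons, rose from 58.2 to 89.6 CPM (log2 fold change 0.63, edgeR adjusted p = 0.00166), and so did the related protease Adam17 (0.62, 0.0420). Aph1b, a subunit of gamma-secretase, fell (-0.77, adjusted p = 0.0221). The beta-secretase gene Bace1 was at 35.3 and 35.6 CPM and was not past the threshold (adjusted p = 0.984). Psenen, the most abundant of the list, was at 120.2 and 124 CPM (0.05, adjusted p = 0.872). Bace1 and the low genes Bace2 (1.16 to 18.2 CPM, log2 fold change 3.97) and Aph1c (-0.85) are named after their values were seen.

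Among 17 genes for App adaptors, sorting and amyloid-beta breakdown, 3 were higher, 6 lower and 8 not past the threshold (median -0.40). Sorl1, a receptor that sorts App between compartments, fell from 122 to 32.3 CPM (log2 fold change -1.91, edgeR adjusted p = 2.63e-06). Fbxo2, a ubiquitin ligase subunit that binds glycoproteins, fell from 181 to 55.0 CPM (-1.72, adjusted p = 0.00130), and Mme, the gene of the amyloid-beta protease neprilysin, fell from 14.1 to 1.17 CPM (-3.42, adjusted p = 1.39e-04). The App adaptors Apba2 (-0.60, adjusted p = 0.0235) and Apba1 (0.48, 0.0188) moved in opposite directions. Mapk8ip1, which links cargo such as App to kinesin, rose (0.76, adjusted p = 0.00155), as did the endocytic receptor Lrp1 (0.60, 0.00178). Itm2b, the most abundant of the list before injury, was at 692 and 524 CPM (-0.40, adjusted p = 0.260), and Klc1, the most abundant after injury, was at 466 and 559 CPM.

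The list of tau kinases, phosphatase subunits and turnover genes had 7 higher, 7 lower and 10 not past the threshold of 24 (median 0.18), although Mapt itself was not past it. Fyn, a tyrosine kinase, rose from 119 to 292 CPM (log2 fold change 1.2998, edgeR adjusted p = 3.03e-05), and Gsk3b, a major tau kinase and the most abundant gene of the list, from 526 to 1041 CPM (0.99, adjusted p = 1.74e-04). Csnk1d, another kinase (0.82, adjusted p = 6.83e-05), and Hdac6, a deacetylase of tubulin (0.63, 0.00642), rose as well. Camk2a fell from 67.0 to 17.4 CPM (-1.958, adjusted p = 9.14e-06). The activators of the kinase Cdk5 fell, Cdk5r2 from 45.3 to 16.3 CPM (-1.47, adjusted p = 2.97e-04) and Cdk5r1 from 76.9 to 46.6 CPM (-0.72, 0.00133), and Ppp2cb, a catalytic phosphatase subunit, fell from 54.5 to 25.0 CPM (-1.13, 1.42e-04).

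Of 13 tested genes for synuclein handling and for relatives and partners of the prion protein, 1 was higher, 4 lower and 8 not past the threshold (median -0.20), and Prnd, the gene of the prion-like protein doppel, did not pass the filter on low counts. Ncam1, an adhesion molecule that binds the prion protein, rose from 584 to 1016 CPM (log2 fold change 0.80, edgeR adjusted p = 3.82e-04). Sncaip, a partner of alpha-synuclein, fell from 15.9 to 5.00 CPM (-1.67, adjusted p = 2.20e-04), and Sprn, a relative of Prnp, from 17.96 to 5.79 CPM (-1.61, 1.17e-04), so that it moved against Prnp. Stip1, a cochaperone that binds the prion protein (-0.66, adjusted p = 0.00582), and Scarb2, a lysosomal membrane protein (-0.35, 0.0314), also fell. Uchl1, the most abundant of the list, was at 1511 and 1602 CPM (0.09, adjusted p = 0.697). Over the 4 lists, genes past the threshold numbered 34, and 15 to 22 in 5 settings given with the limits. Among them were without injured 1 (22, beside 4961 of all genes), without injured 2 (21, beside 5174) and similar libraries summed (15, beside 4181). They numbered 42 with limma-voom quality weights (8249 of all genes). With libraries 1 to 4 they numbered 44 with and 46 without the replicate block (8307 and 8230 of all genes). In the main fit the share past the threshold was 51.5% of the lists and 44.0% of all genes tested. Shares were not worked out for the other settings, so whether the lists held a steady excess over all genes was not tested.

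Markers of other retinal cells are given beside these results. Sums over a list and the range of Clu are CPM without TMM factors. Values of the other single genes are means scaled by those factors. The 10 amacrine markers (2 higher, 1 lower and 7 not past the threshold) summed to 556 to 984 CPM in uninjured and 481 to 668 CPM in injured samples, with Pax6, which RGCs also express, the most abundant before injury (means 325 and 105 CPM) and C1ql2 after it (17.6 and 196 CPM). Of 10 Mueller glia markers 8 were tested, 5 higher and 2 lower, and they summed to 321 to 419 CPM and 415 to 558 CPM, with Dbi the most abundant before injury (mean 142 CPM) and Clu after it (70.8 to 121 CPM in uninjured and 191 to 318 CPM in injured samples). The median log2 fold change of this list was 1.23, and the falls of Dbi and Dkk3 (87.7 and 15.6 CPM) hide rises in the sum, among them Vim (1.23 and 39.1 CPM; edgeR, adjusted p = 5.22e-07), Sox9 (0.343 and 13.0 CPM; 9.20e-07) and Rlbp1 (1.75 and 10.0 CPM; 0.0136). Photoreceptor markers (2 tested, 1 higher) summed to 3.52 to 23.9 CPM and 10.3 to 35.1 CPM, with means of 3.40 and 5.15 CPM for Sag and of 0.318 and 10.5 CPM for Pde6b. Bipolar markers (3 tested, 2 lower), with Isl1 shared with the ganglion cell list, summed to 229.6 to 298 CPM and 187 to 209 CPM, led by Isl1 before injury (mean 120.0 CPM, beside 98.4 CPM of Prkca) and by Prkca after it (138 CPM), with Vsx1 at 0. Microglia and macrophage markers (2 tested, 1 higher) summed to 33.6 to 104 CPM and 35.6 to 63.0 CPM. Astrocyte, oligodendrocyte and endothelial markers (3 tested, none past the threshold with edgeR) summed to 11.8 to 24.5 CPM and 21.4 to 25.4 CPM, led by Mbp. Cells that held UMIs of at least 3 markers of another class made up 70.1% to 88.5% of uninjured and 45.9% to 56.2% of injured libraries, and these markers include Pax6 and Isl1, which RGCs express. Without them 328 uninjured cells (15 in uninjured 2) and 758 injured cells were left, and the log2 fold change was -2.40 for Sncb, -1.35 for Sncg, -1.22 for Aplp2 and 1.22 for Prnp, each past the threshold. How far depth or RGC expression of these markers decides which cells are left was not tested.

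Results that rest on the libraries that stand apart were recomputed without them. Without injured 3 and 4, a setting chosen after the data were seen, the log2 fold change was -1.78 for Sncb, -1.27 for Sncg, -1.18 for Aplp2 and 1.03 for Prnp, with edgeR adjusted p of 0.0100, 0.0207, 0.00298 and 0.00258. Among cells without mCherry the values were -2.07, -1.53, -1.28 and 0.92, and among cells without Xist they were -1.90, -1.07, -1.25 and 1.14, all past the threshold. Cells without mCherry numbered 74 in injured 3 and 74 in injured 4. They come from the same libraries as cells with it, so they cannot separate a vector or its injection from injury.

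The genes whose log2 CPM was most like that of each member over the 9 samples, among 5821 genes, are given as a description. They were Rnf13, Iscu and Nrn1 for Sncb (Pearson r 0.999, 0.998 and 0.998) and Wdr83os, Tmem59l and Syf2 for Sncg (0.993, 0.989 and 0.988). For Mapt they were Ephb1, Scn3a and Ica1 (0.996, 0.987 and 0.984). For App they were Vkorc1l1, Ccnt2 and Hdx (0.978, 0.959 and 0.958), for Aplp1 Tmem263, Nck2 and Rprm (0.955, 0.955 and 0.952), for Aplp2 6720407P12Rik, Kcnc1 and Tfrc (0.998, 0.995 and 0.995) and for Prnp Cyth2, Ppp1r1a and Tspan13 (0.994, 0.994 and 0.994). The samples form 2 conditions and pairs of similar libraries, and high values of r follow wherever a gene differs between them in the same way.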

How the data were processed

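UMI counts per gene and cell were used as deposited. The authors aligned reads to mm39 with Cell Ranger (7.0.1 per the labels, an earlier version per the paper), selected RGCs and deposited raw counts. Every cell met the limits of the study (at least 500 genes, at most 20% mitochondrial UMIs, at most 150000 UMIs). Doublets were not called, since that UMI limit preceded deposit. Counts were summed per library (Python 3.11.15, numpy 2.4.6, scipy 1.17.1, pandas 2.3.3), and injured 3 and 4 were averaged and rounded. R 4.3.3 with edgeR 4.0.16 (filterByExpr, TMM factors, robust quasi-likelihood test, Benjamini-Hochberg adjustment over all genes, threshold 0.05) gave fold changes. The test was checked on simulated counts of independent samples with few changed genes, which does not show its error rate with pairs of similar libraries. Ratios and shares were compared with exact permutation tests, shares adjusted over the 6 members tested and not over all 7 as planned (lowest adjusted p 0.0476 and 0.0556). Cells were thinned with seed 20. All members were named, as were, per pathway list, the most abundant gene and up to 4 rises and 4 falls past the threshold (average log2 CPM at least 3). For likeness, 3 genes per member were named (at least 5). Members and lists were chosen with earlier results of these data known. Alternatives were DESeq2 1.42.0, limma 3.58.1, other scalings, gene and cell filters, thinning, blocks and left-out samples. Positions came from GENCODE vM39 and promoters from RefSeq.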

Additional observations from a re-analysis of the deposited data

Results flagged for a closer look

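Cells with a type marker were set against the other cells of a sample. In 2 pairs of gene and marker, all samples with enough cells went one way before injury and all went the other way after it. In cells with Opn4, Sncb was lower than in other cells in 5 of 5 uninjured samples with enough such cells (mean log2 difference -0.34) and higher in 3 of 3 injured samples (0.60), so that the conditions differed by 0.95. These values rested on 5 to 12 cells with Opn4 per uninjured library and 7 to 18 per injured library, and 1 uninjured value was -0.02. In cells with Cartpt, App was lower in 6 of 6 uninjured samples (-0.13) and higher in 3 of 3 injured samples (0.07), so that the conditions differed by 0.21. The injured values were small, at 0.04, 0.06 and 0.13, and rested on 7 to 11 cells with Cartpt per library. Cartpt was carried by 633 of 1654 uninjured and 35 of 1376 injured cells (injured 3 and 4 added up, although they had barcodes in common), so the cells with it cannot be taken as the same types in both conditions. Exact two-sided permutation tests over samples gave p = 0.0357 for Sncb and p = 0.0238 for App, the smallest possible in each case, and an adjusted p = 0.114 for both over 35 pairs, which is not past the threshold. Larger changes of sign in the mean, without overlap, were seen where uninjured samples did not all go one way. They included Aplp2 (-0.21 to 0.92) and Prnp (0.40 to -0.61) with Opn4, and Prnp (0.27 to -0.81) with Eomes. None of these passed the threshold after adjustment.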

How the results depend on the processing

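Over 30 settings, Sncb (-2.40 to -1.07), Aplp2 (-1.28 to -1.09) and Prnp (0.92 to 1.301) were past the threshold with the same direction, and of 210 pairs of gene and setting 200 gave the same direction and the same side of it. The exceptions follow, and their cause was not tested. Aplp1 turned to 0.0659 without cells with markers of another class. App was past the threshold with DESeq2 (0.21), and Mapt with limma-voom quality weights (-0.40). Sncg was not past it among cells with 3% to 5% Malat1 (-0.35) or with similar libraries summed (-0.97), without injured 1 (-0.87) or without injured 2 (-1.03). Genes past the threshold numbered 6256, and 3471 without cells with markers of another class and 3528 in the Malat1 setting, which leaves 7 and 8 cells in uninjured 5 and 6. Pathway genes past it numbered 34, and 20 without cells with markers of another class, 15 with similar libraries summed and 22 when similar libraries formed a random block. They numbered 42 with limma-voom quality weights, and 44 and 46 with libraries 1 to 4, with and without the replicate block. With libraries 1 to 4 and the replicate block, Sncg was -0.63 and not past the threshold and Mapt was -0.54 and past it, as without the block (-0.55), and genes past the threshold were 8307 with and 8230 without the block. Correlations of same-numbered libraries (-0.0592, 0.0119, -0.0454 and -0.0517) gave no sign that the numbers pair the samples. With the block and a sign-flip test (smallest p 0.125) the ratios App to Aplp1, App to Aplp2, Aplp1 to Aplp2 and Sncg to Sncb differed by 0.36, 1.43, 1.07 and 0.63, and with similar libraries summed (smallest p 0.2) by 0.45, 1.37, 0.92 and 0.74. App to Aplp1 was also not past the threshold in the Malat1 setting (0.38), without cells with markers of another class (0.0702) and with thinned cells (0.40). In the Malat1 setting the shares of cells differed by -11.6 (Sncb), -12.7 (Aplp2) and 7.11 percentage points (Prnp), not past the threshold, and App turned to -1.01. At 5000 UMIs per cell they differed by -38.2 (Sncb), -25.1 (Aplp2) and 19.0 points (Prnp). Leaving out 1 sample at a time, or injured 3 and 4 together (chosen after the data were seen), gave -1.87 to -1.59 for Sncb, -1.27 to -0.87 for Sncg (-1.13 without uninjured 3), -0.41 to -0.24 for Mapt, 0.16 to 0.23 for App, -0.29 to -0.18 for Aplp1, -1.23 to -1.09 for Aplp2, 1.03 to 1.15 for Prnp, 4961 to 6420 genes and 21 to 35 pathway genes. It gave ratio differences of 0.37 to 0.50, 1.3002 to 1.39, 0.81 to 0.99 and 0.46 to 0.78 (0.41, 1.32, 0.91 and 0.46 without injured 3 and 4, and 0.59 for Sncg to Sncb without uninjured 5; not past the threshold with an injured sample left out, where no adjusted p under 0.0714 is possible). It gave share differences of -32.9 to -28.3 (Sncb, -31.0 without injured 3 and 4), -8.63 to -5.22 (Mapt), 0.520 to 1.40 (App), -7.19 to -4.67 (Aplp1), -13.4 to -12.4 (Aplp2) and 6.28 to 8.74 (Prnp, 7.56 without injured 3 and 4), none past the threshold (exact permutation test, smallest raw p 0.0357 or 0.0714). Marker pairs were past the threshold 0 times with at least 3 UMIs (14 pairs) and with at least 10 cells (7 pairs), and the Malat1 setting left no pair to test.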
